A study of Mus musculus with 12 samples.

Results

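The insulin-like growth factor (IGF) family was followed through 9 genes of the 55573 in the count table, taken by gene symbol. They were chosen with earlier results of these data known. They are the ligand genes Igf1 and Igf2, the receptor gene Igf2r, and Igfbp2, Igfbp3, Igfbp4, Igfbp5, Igfbp6 and Igfbp7, which encode secreted IGF binding proteins. RNA came from adipocytes grown out of the stromal vascular fraction (SVF) of mouse subcutaneous fat, the mixed non-adipocyte cells of the tissue, on the C57BL/6 background. The donors carried 2 copies of wild-type PPARγ (WT), of the T166A allele (TA), whose alanine cannot be phosphorylated, or of the T166D allele (TD), whose aspartate mimics the phosphorylated threonine. The mutations were global, made with CRISPR-Cas9, so every cell type of the SVF carried them. Each genotype had 4 libraries, and all 3 genotypes shared 1 protocol, with 850 nM insulin, 1 nM T3, 0.5 mM IBMX, 125 nM indomethacin and dexamethasone at induction, then insulin and T3 alone until harvest on day 8. The labels state neither the sex nor the age of the donors, nor whether the 4 libraries of a genotype came from separate animals, so the p-values measure the spread between these libraries, which may be technical.

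IGF ligands act through the type 1 IGF receptor, a tyrosine kinase close to the insulin receptor. The IGF2 receptor, which is also the cation-independent mannose 6-phosphate receptor, takes up IGF2 for degradation in lysosomes and does not signal as a kinase. Binding proteins hold the ligands in the extracellular space and can limit or prolong their action, and Igfbp7 binds IGFs far more weakly than the classical members. Fat is a source of IGF1 outside the liver, preadipocytes respond to IGF1 during adipogenesis, and insulin at the high concentrations of differentiation media can also engage the type 1 IGF receptor.

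The 250 bases before the RefSeq transcription start are printed for the binding protein genes on which the comparison of genotypes turned, and for Igfbp4, whose level hardly moved, as a contrast. They are on GRCm38.p6, 5′ to 3′ on the strand of the gene, and capitals mark matches on either strand to the TATA box (TATAAA), the CCAAT box, the GC box (GGGCGG) or the nuclear receptor half-site (AGGTCA).
Igfbp5, chr1:72874866-72875115, minus strand: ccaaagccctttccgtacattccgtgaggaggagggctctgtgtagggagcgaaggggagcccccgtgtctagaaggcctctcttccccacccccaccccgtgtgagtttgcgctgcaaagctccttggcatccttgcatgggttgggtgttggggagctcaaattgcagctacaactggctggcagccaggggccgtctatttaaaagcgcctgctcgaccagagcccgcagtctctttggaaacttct
Igfbp7, chr5:77408046-77408295, minus strand: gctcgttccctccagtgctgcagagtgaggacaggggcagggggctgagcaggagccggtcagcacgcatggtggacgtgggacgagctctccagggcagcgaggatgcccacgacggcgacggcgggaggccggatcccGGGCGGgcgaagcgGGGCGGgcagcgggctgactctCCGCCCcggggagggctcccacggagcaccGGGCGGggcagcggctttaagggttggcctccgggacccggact
Igfbp3, chr11:7213924-7214173, minus strand: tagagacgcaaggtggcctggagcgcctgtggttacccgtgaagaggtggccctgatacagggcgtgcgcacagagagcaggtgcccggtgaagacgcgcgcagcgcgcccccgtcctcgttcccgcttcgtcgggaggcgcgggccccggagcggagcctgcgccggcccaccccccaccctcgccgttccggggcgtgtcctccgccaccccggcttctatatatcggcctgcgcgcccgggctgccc
Igfbp6, chr15:102143936-102144185, plus strand: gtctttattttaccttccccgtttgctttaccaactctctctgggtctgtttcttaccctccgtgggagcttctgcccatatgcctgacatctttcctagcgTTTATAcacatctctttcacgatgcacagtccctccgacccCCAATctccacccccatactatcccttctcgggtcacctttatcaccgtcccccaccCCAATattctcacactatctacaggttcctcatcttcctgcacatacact
Igfbp4, chr11:99040994-99041243, plus strand: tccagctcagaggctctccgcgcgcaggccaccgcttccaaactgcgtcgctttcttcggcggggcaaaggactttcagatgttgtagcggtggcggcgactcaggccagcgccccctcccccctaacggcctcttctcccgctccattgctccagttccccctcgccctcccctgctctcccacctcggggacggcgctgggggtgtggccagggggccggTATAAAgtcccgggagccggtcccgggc
The Igfbp7 window held 4 GC boxes, 1 of them on the other strand, Igfbp4 held a TATA box, and Igfbp6 held a TATA box on the opposite strand and 2 CCAAT boxes. The Igfbp3 and Igfbp5 windows held none of these letters. A window of Igfbp2, a gene not called between any of the genotypes and not printed here, held GC boxes as well. In 32851 mouse promoter windows of this length, 12.4% held the TATA box, 33.8% the CCAAT box, 32.7% the GC box and 14% the half-site. The half-site occurred in none of the windows of the 6 binding protein genes, but in 1 window each of Igf1, Igf2 and Igf2r. The perfect direct repeat of it with 1 base between, the form known as DR1 and bound by PPARγ with its partner RXR, was in none of the windows of the 9 genes and in 0.0335% of all windows. Of the Igfbp5 window, 19 bases lie in an exon of the GENCODE annotation. All 250 bases of the Igf1 window lie in GENCODE exons of Igf1, so its half-site is within the gene as annotated there. The Igfbp6 window ends at base 102144185, upstream of the GENCODE start of the gene at 102144362. A match or its absence in so short a window describes the letters only.

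The libraries held 16553324 to 20324286 counts, with those of WT the deepest. Adipocyte markers were abundant in every library, with a summed level of 13646 to 23061 normalised read counts (CPM, counts scaled to a fixed total by the TMM-normalized library size) over 10 genes led by Fabp4, the fatty acid carrier of adipocytes. Fibroblast and preadipocyte markers, led by Col3a1, were also high, at a summed 10210 to 25925 CPM over 12 genes. Pparg itself was at 373, 331, 344 and 368 CPM in the WT libraries, 353, 428, 322 and 391 CPM in TA and 258, 257, 223 and 210 CPM in TD. It was lower in TD than in WT by edgeR's quasi-likelihood test (log2 fold change -0.58, SE 0.095, adjusted p = 0.000429). A codon change cannot be seen in counts per gene, so these values do not check the genotypes.

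**Figure D1:**
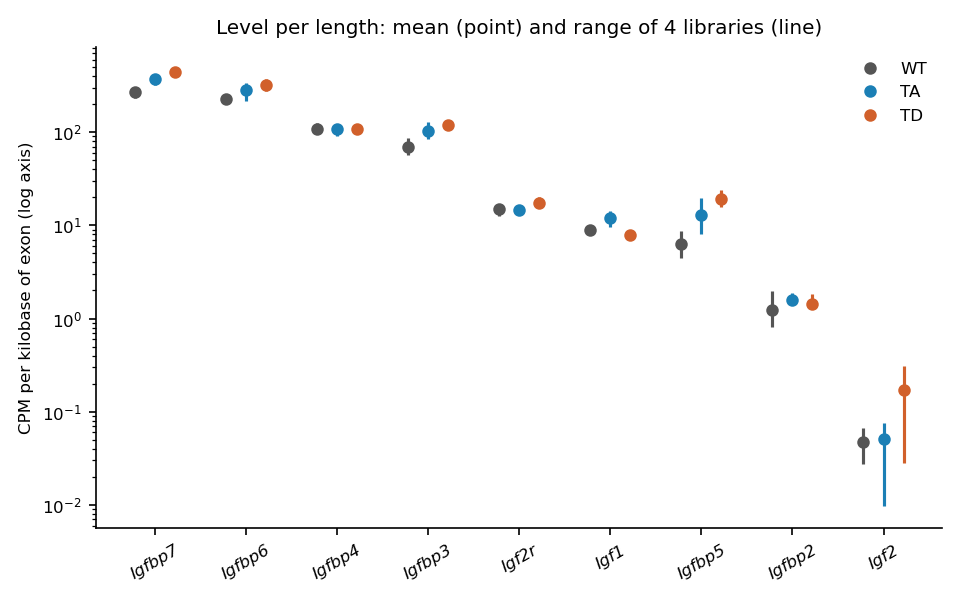
Level of each gene per kilobase of exon (log axis, CPM per kb) in WT, TA and TD, with the mean of 4 libraries as a point and the range as a line. Igfbp7 and Igfbp6 lead in each genotype, Igfbp2 lies near 1 to 2 CPM per kb and Igf2 below 1.

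To compare levels between genes, CPM were divided by the length of the merged exons. In WT, Igfbp7 stood highest at 269 ± 27.4 CPM per kb (SD, n = 4), ahead of Igfbp6 at 224 ± 19, and the ranges of these neighbours overlapped (231 to 291 and 205 to 250). Igfbp4 followed at 108 ± 13.8 CPM per kb and Igfbp3 at 69.3 ± 12.8, with ranges that did not overlap. Igf2r was at 15 ± 1.83 CPM per kb and Igf1 at 8.91 ± 0.712, again apart. Igfbp5 was at 6.28 ± 2 CPM per kb, and its highest WT library (8.61) passed the lowest of Igf1 (8.22). Igfbp2 was at 1.22 ± 0.548 CPM per kb and Igf2 at 0.0474 ± 0.0167, the lowest of the 9. Of the Igf2 exon bases, 62.83% are shared with Gm49394 on the same strand. How reads there were counted is not given in the sources used here, so the Igf2 level may be understated.

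The order shifted in TD. Igfbp3 rose to 118 ± 8.12 CPM per kb, its range of 110 to 129 meeting that of Igfbp4 (103 to 111), and Igfbp5 rose to 19.2 ± 3.57 CPM per kb, with a range of 15.8 to 24 that overlapped that of Igf2r (15.2 to 20). In TA the order kept Igfbp7, Igfbp6, Igfbp4 and Igfbp3 in front, with Igfbp5 at 13 ± 5.29 CPM per kb. The order depended on the length used. Per kilobase of coding sequence Igfbp4 led in WT at 624 CPM per kb, before Igfbp6 at 348 and Igfbp7 at 346.

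Summed over the 6 binding protein genes, the level per length was 677 ± 48.4 CPM per kb in WT (range 613 to 730), 879 ± 106 in TA (739 to 996) and 1007 ± 38.6 in TD (955 to 1047, SD, n = 4 each). The WT range lay below that of TA and of TD. Igfbp7 made up a mean of 39.7% of this sum in WT and 43.4% in TD, and Igfbp5 0.92% in WT and 1.91% in TD. The share of Igfbp4 went from 16% in WT to 12.3% in TA and 10.7% in TD, while its own level stayed near 108 CPM per kb. These shares also depended on the length used. Per kilobase of coding sequence, Igfbp4 had the largest share, at 38.7% in WT and 27.7% in TD, Igfbp7 had 21.4% in WT and 24.9% in TD, and Igfbp5 had 2.87% and 6.27%.

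Of the 9 genes, 8 passed the filter on low counts and entered the test of 15117 genes. Between TD and WT, 4 of the 8 were higher in TD and none was lower at an adjusted p under 0.05 by edgeR. Of all genes tested, edgeR called 15.1% higher and 29.2% in either direction. None of the 8 was lower at an unadjusted p under 0.05 or in DESeq2 (0 each). All 4 higher genes encode binding proteins: Igfbp3, Igfbp5, Igfbp6 and Igfbp7. In each the TD libraries lay wholly above the WT libraries, as did 15.8% of all genes tested. The median log2 fold change of the 8 genes was 0.39, against 0.01 for all genes. Over all genes, the balance of calls depended on the scaling, with 2276 higher and 2142 lower under TMM and 2840 higher and 1558 lower under library totals. The calls of the 8 genes were 4 higher and 0 lower under both.

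**Figure D2:**
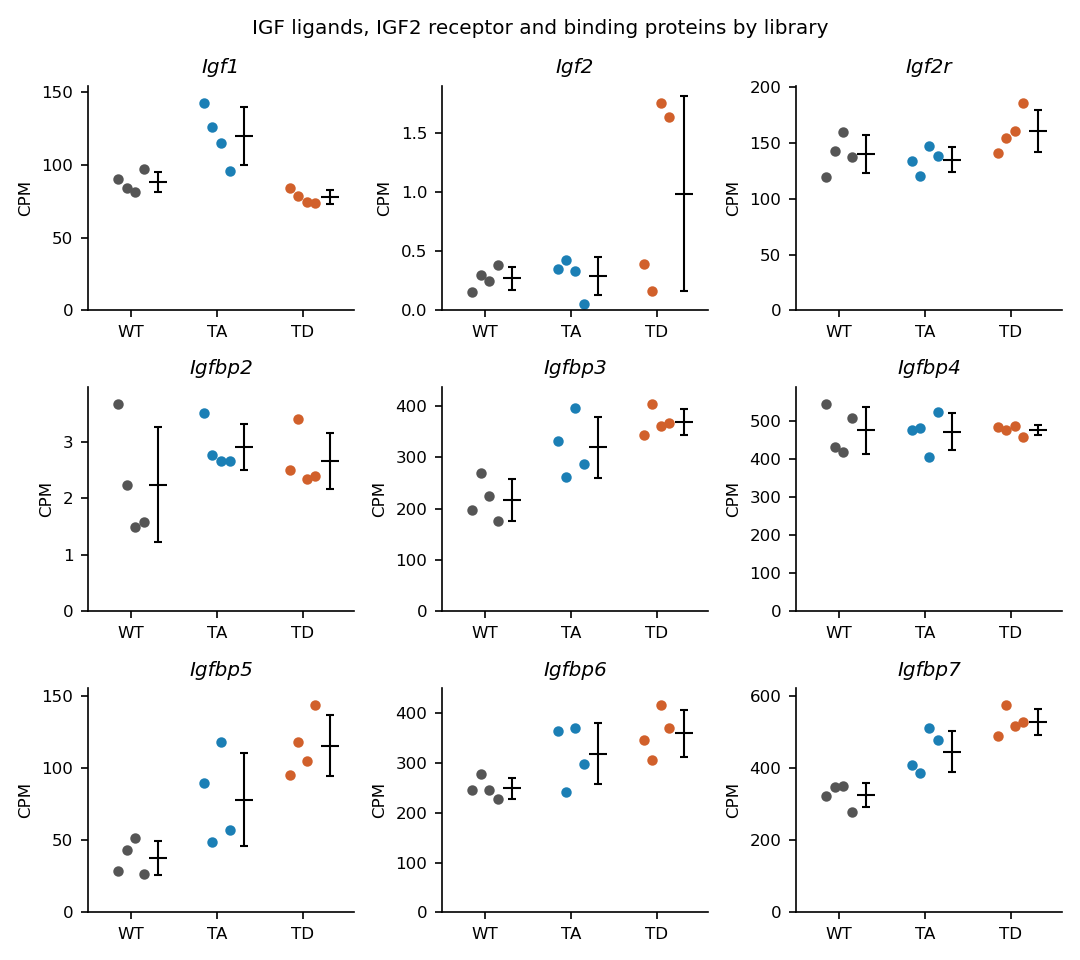
CPM of each of the 9 genes in the 4 WT, 4 TA and 4 TD libraries (points), with the mean and SD at the right of each group; each panel starts at 0 and has its own scale. Igfbp5 goes from 26.7 to 51.7 CPM in WT to 94.9 to 144 in TD, Igf1 is highest in TA, Igfbp4 is level, and TD replicates 3 and 4 stand above the other libraries for Igf2.

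Igfbp5 (ENSMUSG00000026185, chr1:72857932-72874884, minus strand), a binding protein that attaches to extracellular matrix, had the largest log2 fold change of the 8 genes tested. Positions are on GRCm38. It was at 28.7, 43.6, 51.7 and 26.7 CPM in the WT libraries, at 89.7, 48.5, 118 and 56.8 CPM in TA and at 94.9, 118, 105 and 144 CPM in TD. Every TD library lay above every WT library, and TA was the most scattered, with its replicates 1 and 3 near or within the TD range and its replicates 2 and 4 close to the highest WT library. The log2 fold change of TD over WT was 1.61 (SE 0.25, adjusted p = 0.000316), or 3.06-fold.

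Igfbp7 (ENSMUSG00000036256, chr5:77349240-77408041, minus strand), a secreted protein of vessel walls and stroma, was at 322, 348, 352 and 280 CPM in WT, 410, 387, 511 and 479 CPM in TA and 491, 577, 517 and 528 CPM in TD. WT lay below both mutants in every library. TD exceeded WT by a log2 fold change of 0.70 (SE 0.099, adjusted p = 0.000187), or 1.62-fold. Of its exon bases 7.03% overlap Polr2b on the opposite strand, and the strand setting of the counting is not given in the sources used here.

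Igfbp3 (ENSMUSG00000020427, chr11:7206086-7213923, minus strand), the main IGF carrier of serum, was at 197, 270, 224 and 177 CPM in WT, 332, 262, 396 and 288 CPM in TA and 344, 405, 362 and 367 CPM in TD. TD lay above WT without overlap, whereas the lowest TA library fell within the WT range. The log2 fold change of TD over WT was 0.77 (SE 0.13, adjusted p = 0.000543), or 1.7-fold.

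Igfbp6 (ENSMUSG00000023046, chr15:102144362-102149511, plus strand), which binds IGF2 in preference to IGF1, was at 245, 278, 245 and 228 CPM in WT, 365, 242, 371 and 297 CPM in TA and 346, 305, 417 and 370 CPM in TD. The TD libraries were all above the WT libraries, by the smallest margin of the 4 genes. TD exceeded WT by 0.53 on the log2 scale (SE 0.12, adjusted p = 0.0048), or 1.45-fold. This call was lost when TD replicates 3 and 4 were left out together (0.39, adjusted p = 0.109), and the calls of Igfbp3, Igfbp5 and Igfbp7 held.

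The other binding proteins did not pass the test. Igfbp4 (ENSMUSG00000017493, chr11:99041244-99054392, plus strand), a carrier that releases IGFs when cut by the protease PAPP-A, was at 546, 431, 418 and 508 CPM in WT, 476, 482, 406 and 523 CPM in TA and 485, 477, 488 and 457 CPM in TD. The 3 groups overlapped throughout, and the 95% interval of its log2 fold change of TD over WT ran from -0.18 to 0.19. Igfbp2 (ENSMUSG00000039323, chr1:72824503-72852474, plus strand), a binding protein made by preadipocytes, had 29 to 71 counts per library, and the interval for TD over WT, from -0.29 to 0.77, was too wide to tell a fold change of the size seen in Igfbp3 from none.

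The ligands and the receptor were not called between TD and WT either. Igf1 (ENSMUSG00000020053, chr10:87858265-87937042, plus strand) was at 90.2, 84.3, 81.4 and 97.3 CPM in WT and 84.4, 78.4, 74.3 and 74 CPM in TD, with overlap of 1 TD library and a log2 fold change of -0.18 (SE 0.10, adjusted p = 0.194). Igf2r (ENSMUSG00000023830, chr17:12682406-12769664, minus strand) was at 119, 143, 160 and 137 CPM in WT, 134, 120, 147 and 138 CPM in TA and 141, 154, 161 and 186 CPM in TD. Its groups overlapped, and TD over WT gave 0.20 (SE 0.10, adjusted p = 0.137).

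Igf2 (ENSMUSG00000048583, chr7:142650766-142666816, minus strand) had few counts. It had 3, 6, 5 and 7 counts in the WT libraries, 6, 7, 6 and 1 in TA and 7, 3, 33 and 28 in TD, too few for the filter. TD replicates 3 and 4 stood apart from the other 10 libraries, while TD replicates 1 and 2 were at WT level. Exact permutation of the 8 libraries, two-sided, gave p = 0.171 for the mean of 0.989 CPM in TD against 0.271 CPM in WT. When no filter was applied, edgeR called Igf2 higher in TD than in WT (log2 fold change 1.84, SE 0.558, adjusted p = 0.00851) and than in TA (1.75, SE 0.562, adjusted p = 0.0202). That fit gave the members with many counts nearly the same error, though their scatter was unlike. For Igfbp5 in TD against WT the SE was 0.0914, where the filtered fit had 0.25. The members with few counts had larger errors in TD against WT, with an SE of 0.558 for Igf2 and 0.27 for Igfbp2. Most of the Igf2 exons (62.83% of their bases) also belong to Gm49394 on the same strand, which had 0 counts in every library, and how reads in shared exons were counted is not given in the sources used here. Skeletal muscle markers, 12 genes led by Myh1, were also highest in TD replicates 3 and 4, at a summed 257 and 139 CPM against 5.4 to 67.3 in the other libraries. Their part in the Igf2 counts was not tested.

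Between TA and WT, 4 of the 8 genes were higher in TA by edgeR and none was lower. Of all genes tested, edgeR called 6.72% higher and 11.1% in either direction. None of the 8 was lower at an unadjusted p under 0.05 or in DESeq2 (0 each). The 4 higher genes by edgeR were Igf1, Igfbp3, Igfbp5 and Igfbp7. Only Igfbp7 had all TA libraries above all WT libraries, as did 7.71% of all genes. The median log2 fold change of the 8 genes was 0.41, against -0.01 for all genes. This comparison and that of TD with WT use the same WT libraries, so the calls they have in common are not independent.

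Igf1, the ligand made in fat under growth hormone, was at 143, 126, 115 and 96.1 CPM in TA. Of these, 3 libraries lay above all WT libraries, and TA replicate 4 fell within the WT range. TA exceeded WT by a log2 fold change of 0.44 (SE 0.10, adjusted p = 0.00903), or 1.36-fold. Igfbp5 exceeded WT by 1.05 (SE 0.25, adjusted p = 0.0118), Igfbp3 by 0.56 (SE 0.13, adjusted p = 0.0104) and Igfbp7 by 0.46 (SE 0.099, adjusted p = 0.0063). Igfbp6 gave 0.36 (SE 0.12, adjusted p = 0.0783) and was called in DESeq2 (adjusted p = 0.0418) and without TA replicate 2 (0.46, adjusted p = 0.00905).

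**Figure D3:**
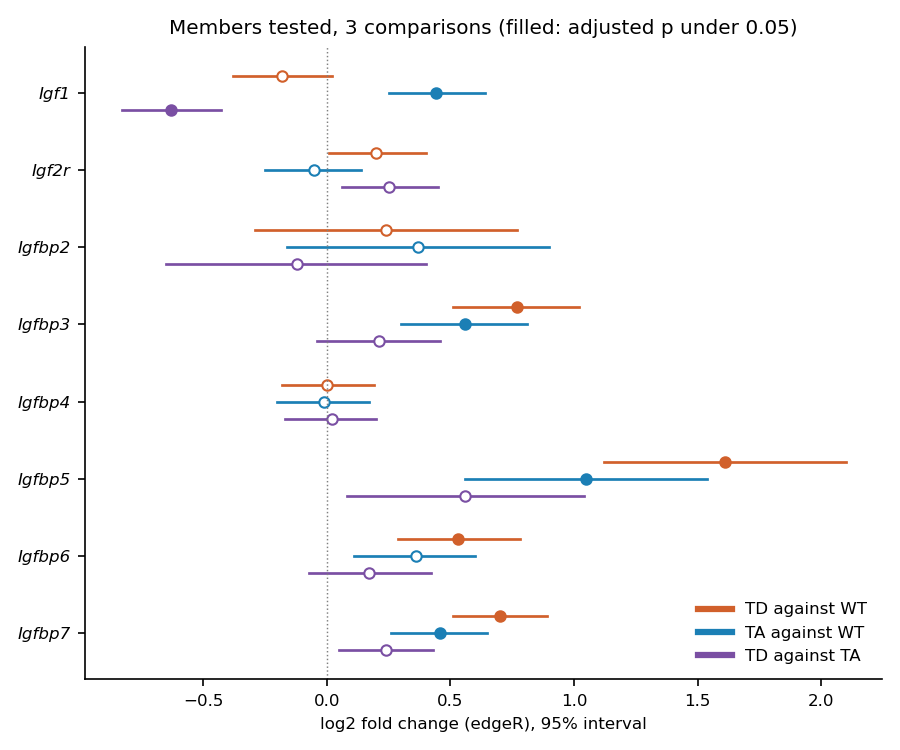
Log2 fold changes from edgeR (horizontal axis) of the 8 genes tested, with 95% intervals, for TD against WT (orange), TA against WT (blue) and TD against TA (purple); filled points have an adjusted p under 0.05. Igfbp3, Igfbp5 and Igfbp7 are filled in both comparisons with WT, and Igf1 alone is filled between the mutants.

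Between the 2 mutants, Igf1 was the only one of the 8 genes called, lower in TD, where 9.37% of all genes tested were called lower and 16.7% in either direction. The TD libraries, at 74 to 84.4 CPM, all lay below the TA libraries, at 96.1 to 143 CPM, as did 10.6% of all genes tested. Library totals turned the balance over all genes from 1108 higher and 1416 lower to 1802 higher and 982 lower, and added Igf2r as a member called higher in TD. The log2 fold change of TD over TA was -0.63 (SE 0.10, adjusted p = 0.00069), so that TA was 1.54-fold higher. The binding proteins that were higher in TD than in WT gave positive differences between TD and TA that did not pass the test: 0.56 for Igfbp5 (interval 0.08 to 1.04, adjusted p = 0.126), 0.24 for Igfbp7 (0.05 to 0.43, adjusted p = 0.103), 0.21 for Igfbp3 (-0.04 to 0.46, adjusted p = 0.286) and 0.17 for Igfbp6 (-0.07 to 0.42, adjusted p = 0.363). Without TA replicate 3, the TA library with the highest Igfbp3, Igfbp5, Igfbp6 and Igfbp7, both Igfbp5 (0.83, adjusted p = 0.0142) and Igfbp7 (0.31, adjusted p = 0.0298) were called higher in TD. Igf2r gave 0.25 (SE 0.10, adjusted p = 0.0906) and Igfbp4 0.02 (SE 0.095, adjusted p = 0.931).

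Some of the genes lie side by side in the genome. Igfbp2 and Igfbp5 are 5457 bp apart on opposite strands of chromosome 1, and their mean levels per length in TD were 1.44 and 19.2 CPM per kb. Igfbp3 lies 3539 bp from Igfbp1 on chromosome 11, and Igfbp1, a binding protein of liver, had 1 count in 1 TD library and 0 in the other 11. H19, a maternally expressed non-coding RNA that shares an imprinting control region with Igf2, lies 72.62 kb from it on chromosome 7. H19 was at 36.3, 31.6, 32.6 and 30.4 CPM in WT, 36.2, 65.2, 79.7 and 68.5 CPM in TA and 65, 108, 163 and 117 CPM in TD. Per length its mean level in WT was 13.3 CPM per kb, against 0.0474 for Igf2, whose level may be understated because of its shared exons. TD lay above WT in every library, with a log2 fold change of 1.79 (SE 0.23, adjusted p = 0.000119). H19 was also higher in TA than in WT (0.93, SE 0.23, adjusted p = 0.0161).

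The tested genes with the pattern most like that of Igfbp5 over the 12 libraries were Prg4, the lubricating proteoglycan of joints and fascia, Adgrf5, an adhesion receptor, and Aox3, an aldehyde oxidase. Likeness was the root-mean-square difference between log2 CPM values, each gene centred on its own mean, and was 0.204 for Prg4, 0.221 for Adgrf5 and 0.246 for Aox3 among the 10548 tested genes whose mean reached 5 CPM. Prg4, for example, was at 56, 72.2, 84.1 and 51.8 CPM in WT, 154, 94.1, 192 and 127 CPM in TA and 129, 168, 209 and 225 CPM in TD. As with Igfbp5, its TA replicate 3 lay at the level of TD and its TA replicate 2 was the lowest of TA.

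The wider IGF system was taken as 36 further genes in 6 lists by role, of which 30 could be tested. Between TD and WT, 7 were higher and 5 lower, with a median log2 fold change of 0.06, where 15.1% of all genes were called higher and 14.2% lower. Between TA and WT 4 were higher and 4 lower, with a median of -0.00, beside 6.72% and 4.41% of all genes. Between TD and TA 8 were higher and 3 lower, with a median of 0.08, beside 7.33% and 9.37%. Each list by role held 3 to 10 tested genes, and its counts stand beside these same shares. Genes named from these lists beyond Igf1r, Igfbp1, Pappa, Ghr and H19 and the largest changes were chosen after their values were seen.

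Among receptors and adaptors, TD had 3 of 10 genes above WT (background 15.1%) and 3 below (background 14.2%). Igf1r, the signaling receptor of both ligands, was at 21.5, 29.5, 28.6 and 26.6 CPM in WT, 26.5, 22.1, 33.1 and 30.5 CPM in TA and 33.9, 34.5, 35.5 and 41.7 CPM in TD. All TD libraries lay above the WT and the TA libraries, and TD exceeded WT by 0.46 on the log2 scale (SE 0.12, adjusted p = 0.0113). Without TD replicates 3 and 4 it was no longer called (0.37, adjusted p = 0.142), and its difference from TA (0.38, SE 0.12, adjusted p = 0.0473) was not called in 6 of the 8 fits without 1 library. Lrp1, an endocytic receptor that also binds IGFBP3 (0.35, SE 0.13, adjusted p = 0.045), and Grb10, an imprinted inhibitor of insulin and IGF1 receptors (0.28, SE 0.079, adjusted p = 0.0128), were the others that rose. Insr, the insulin receptor (-0.31, SE 0.091, adjusted p = 0.0189), Irs2 (-0.28, SE 0.093, adjusted p = 0.0335) and Irs3 (-0.47, SE 0.13, adjusted p = 0.0116), both adaptors of that receptor, fell. In the 8 fits that left out 1 library, the adjusted p reached 0.182 for Lrp1, 0.115 for Irs2 and 0.0749 for Insr, which were not called in 5, 5 and 3 of them. Grb10 was not called without WT replicate 4 (0.23, adjusted p = 0.0501), nor Irs3 without WT replicate 1 (-0.39, adjusted p = 0.0518).

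Irs3, an adaptor found in rodent fat, had the largest fall of the lists between TA and WT. It was at 40.7, 34.7, 30.1 and 34 CPM in WT, 18.2, 17.8, 11.3 and 18.1 CPM in TA and 26.7, 25.9, 23.8 and 24 CPM in TD. The genotypes did not overlap, with TA lowest and TD between TA and WT. TA was below WT by a log2 fold change of -1.09 (SE 0.13, adjusted p = 5.44e-05), and TD was above TA by 0.62 (SE 0.13, adjusted p = 0.00533).

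**Figure D4:**
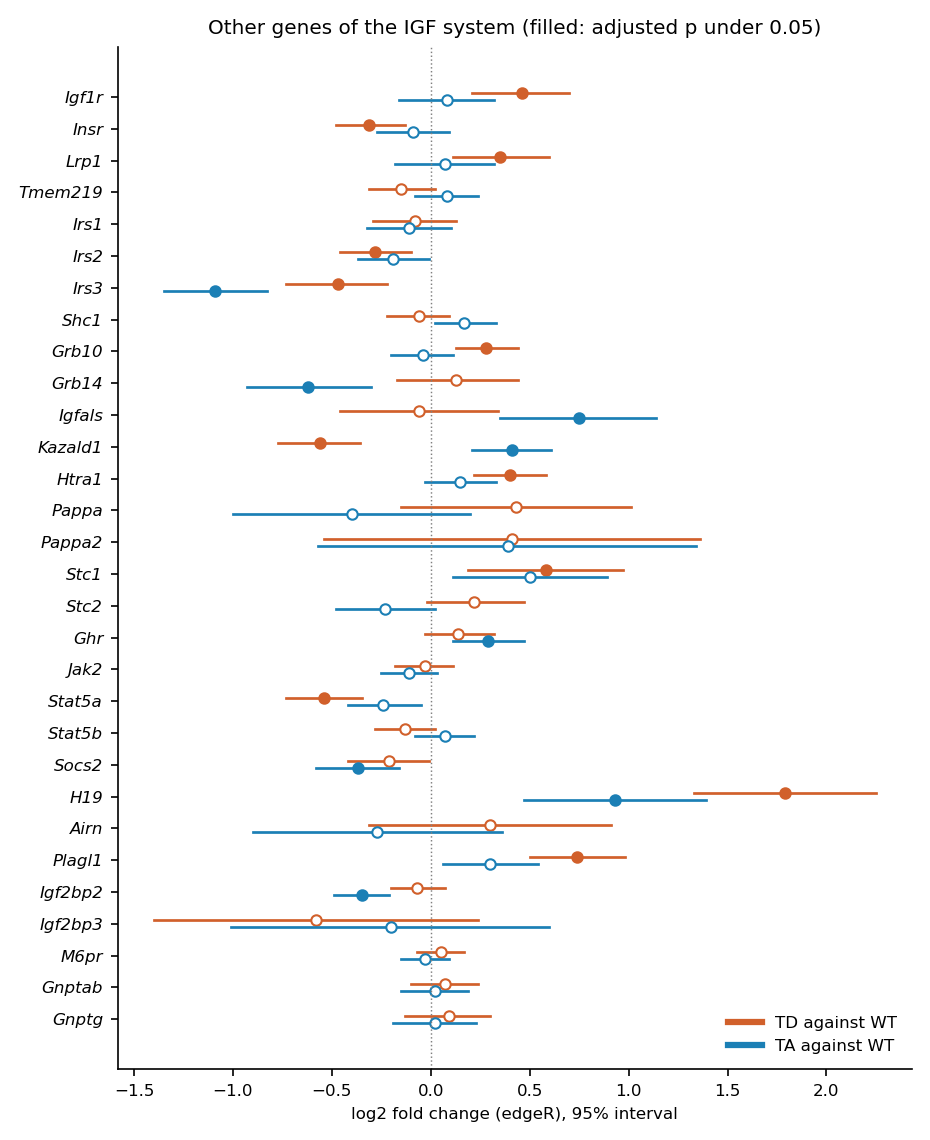
Log2 fold changes from edgeR (horizontal axis) of the 30 tested genes of the wider IGF system, with 95% intervals, for TD against WT (orange) and TA against WT (blue); filled points have an adjusted p under 0.05. Changes lie on both sides of 0, with H19 the largest rise in both and Irs3 the largest fall in TA.

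Of the other binding proteins, 1 of 3 tested was above WT in TD and 1 below. Kazald1, a secreted protein with an IGF-binding domain, was at 31.4, 30.9, 28.9 and 27.9 CPM in WT, 39.5, 45.8, 31.7 and 41.3 CPM in TA and 22.7, 20.1, 19.4 and 18.6 CPM in TD. The mutants lay on opposite sides of WT without overlap: TA was higher than WT (0.41, SE 0.10, adjusted p = 0.0158), TD lower than WT (-0.56, SE 0.10, adjusted p = 0.000996) and TD lower than TA (-0.97, SE 0.10, adjusted p = 1.82e-05). Igfals, which carries the ternary complex of IGFs in serum, was higher in TA than in WT (0.75, SE 0.20, adjusted p = 0.0234) at 5.96 to 9.11 CPM, and was not called without WT replicate 3 (0.56, adjusted p = 0.0534) or TA replicate 4 (0.62, adjusted p = 0.0781). Htra1, a secreted protease with an IGF-binding domain, was higher in TD than in WT (0.40, SE 0.093, adjusted p = 0.0045).

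Of the proteases that cut binding proteins and their inhibitors, 1 of 4 was called between TD and WT. Pappa, which cuts Igfbp4 and Igfbp5, was at 2.88 to 6.05 CPM in WT, 2.21 to 5.4 in TA and 3.69 to 9.26 in TD and gave 0.43 for TD over WT (SE 0.30, adjusted p = 0.3). Stc1, an inhibitor of Pappa, was higher in TD (0.58, SE 0.20, adjusted p = 0.0383), a call that held in 3 of the 8 fits without 1 library (adjusted p 0.0306 to 0.0947).

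In the growth hormone axis, which drives Igf1 transcription, 1 of 5 genes was called higher and 1 lower between TA and WT. Ghr, the growth hormone receptor, was at 371, 414, 429 and 427 CPM in WT, 574, 524, 491 and 419 CPM in TA and 429, 462, 445 and 478 CPM in TD. As with Igf1, 3 TA libraries lay above WT and replicate 4 did not. The difference between TA and WT was 0.29 (SE 0.090, adjusted p = 0.048), and in 7 of the 8 fits that left out 1 library it was not called (adjusted p 0.00971 to 0.16), the exception being the fit without TA replicate 4. The call was also lost with the size factors of DESeq2 in edgeR (adjusted p = 0.0512) and with TA and WT fitted alone (adjusted p = 0.104). Socs2, a target and inhibitor of growth hormone signaling, was lower in TA (-0.37, SE 0.11, adjusted p = 0.0309) but was called in only 3 of those 8 fits (adjusted p 0.0124 to 0.0874), and Stat5a, which carries that signal, was lower in TD than in WT (-0.54, SE 0.096, adjusted p = 0.000718).

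Of the imprinted and RNA regulators, 2 of 5 were higher in TD than in WT, H19 and Plagl1, an imprinted zinc finger gene expressed from the paternal allele (0.74, SE 0.12, adjusted p = 0.000427). The mannose 6-phosphate pathway, whose enzymes put on the tag that Igf2r recognises on lysosomal proteins, had 0 of 3 genes called in each comparison by edgeR, 0 at an unadjusted p under 0.05 and 0 in DESeq2.

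**Figure D5:**
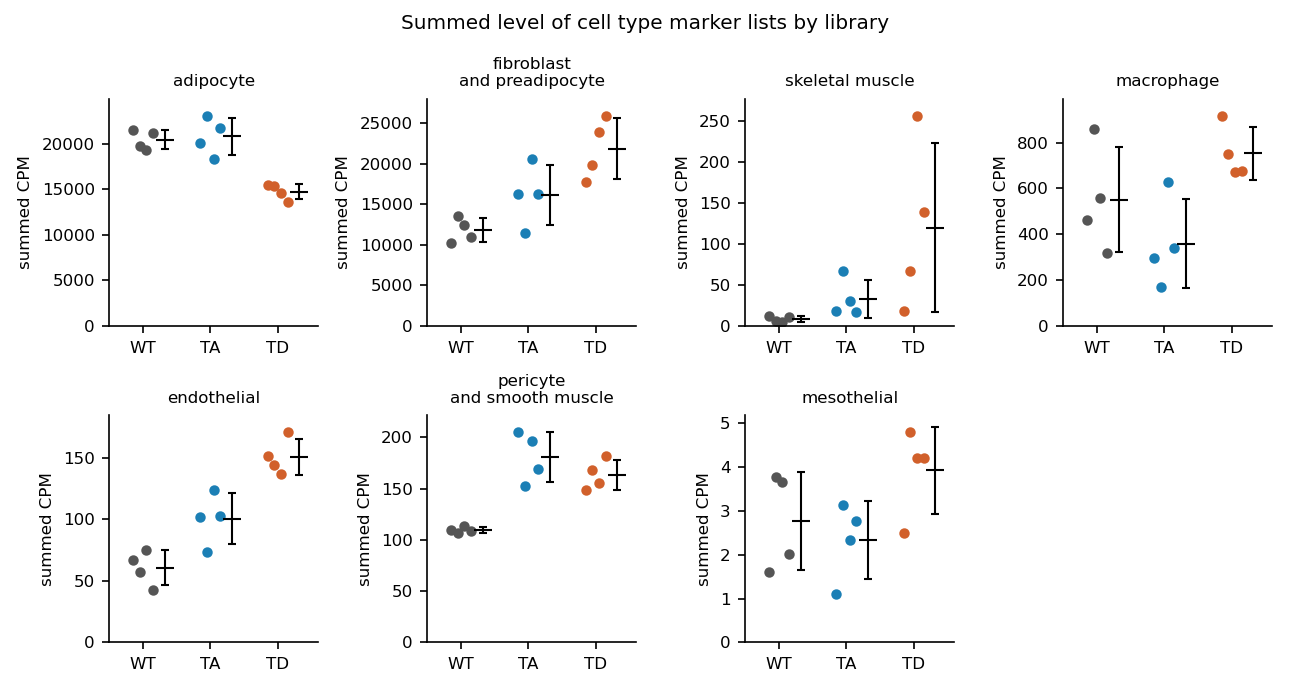
Summed CPM of 7 marker lists in the 4 WT, 4 TA and 4 TD libraries (points), with the mean and SD at the right; each panel starts at 0 and has its own scale. Endothelial and fibroblast markers are higher in TD than in WT without overlap, adipocyte markers are lower, and TD replicates 3 and 4 lead for muscle markers.

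The marker lists of other cell types did not all differ alike. In TD, most tested markers of fibroblasts, endothelium, pericytes and muscle were called higher than in WT. Most macrophage and mesothelial markers were not called. Between TD and WT, 9 of 11 tested fibroblast and preadipocyte markers were higher, where 15.1% of all genes were called higher and 14.2% lower, with a summed level of 10210 to 13558 CPM in WT, 11491 to 20603 in TA and 17741 to 25925 in TD. Dlk1, a preadipocyte gene of this list, was under 3 counts in every library. Endothelial markers, led by Pecam1, were higher in 9 of 10, at 42.4 to 75.4 CPM in WT, 73.7 to 124 in TA and 137 to 171 in TD. Pericyte and smooth muscle markers, led by Acta2, were higher in 6 and lower in 1 of 7, at 107 to 114 CPM in WT, 153 to 205 in TA and 149 to 182 in TD.

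Muscle markers were higher in 8 of 8 tested, out of 12 listed, at 5.4 to 11.9 CPM in WT, 17.4 to 67.3 in TA and 18.2 to 257 in TD. Some of them passed the filter on low counts only through mutant libraries, so a higher call was partly set by the filter. In the WT libraries Myog had 0 counts, Actc1 0 to 3 and Ckm 0 to 5. Pax7, the satellite cell gene, was under 3 counts throughout. Macrophage markers, led by Lyz2, were higher in 1 of 10 by edgeR and in 0 by DESeq2, at 319 to 861 CPM in WT, 171 to 627 in TA and 671 to 917 in TD. Mesothelial markers, led by Krt19, had 0 of 2 called by edgeR, 0 at an unadjusted p under 0.05 and 0 by DESeq2, and summed to 1.11 to 4.8 CPM, with Upk3b under 3 counts. Adipocyte markers were lower in 8 of 10, at 19345 to 21546 CPM in WT, 18337 to 23061 in TA and 13646 to 15412 in TD. Fibroblasts, endothelium and pericytes are known to express binding protein genes, and the part of these cells in the values of Igfbp3, Igfbp5, Igfbp6 and Igfbp7 was not tested. In RNA of whole cultures, fewer cells of a type and less RNA per cell cannot be told apart.

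Within TA, the library with the highest fibroblast and endothelial sums, replicate 3 at 20603 and 124 CPM, was also that with the highest Igfbp3, Igfbp5, Igfbp6 and Igfbp7. Replicate 2, with the lowest sums at 11491 and 73.7 CPM, had the lowest values of all 4 genes. This was not particular to these 2 lists. The macrophage sum was also highest in replicate 3 (627 CPM) and lowest in replicate 2 (171 CPM). The adipocyte sum was the reverse, at 18337 and 23061 CPM. Muscle and mesothelial sums were highest in replicate 2, and the pericyte and smooth muscle sum in replicate 1. The fibroblast and endothelial sums and the 4 genes did not share their orders in this way within TD. There replicate 4 had the highest fibroblast and endothelial sums, at 25925 and 171 CPM, and the highest Igfbp5, but Igfbp3 and Igfbp7 were highest in replicate 2 and Igfbp6 in replicate 3, whose endothelial sum of 137 CPM was the lowest of TD. For Igf1 the order within TA was another, with replicate 1 highest at 143 CPM and replicate 4 lowest at 96.1 CPM.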

How the data were processed

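Reads had been trimmed, aligned to GRCm38 and counted per gene by the authors, and the submitters' processing notes name bcl2fastq 2.17.1.14, cutadapt 1.9.1, HISAT2 2.0.1 and HTSeq 0.6.1. The strand and overlap settings of the counting are not given in the sources used here. The deposited values are raw counts for 55573 genes in 12 libraries, as 1 table and again in 12 single-library files, which held equal values. The study's methods name DESeq2, which was used here as an alternative.

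Genotype and replicate number came from the sample titles. Genes were kept by filterByExpr of edgeR 4.0.16 (R 4.3.3; minimum count 10, minimum total 15), which left 15117. Libraries were scaled by TMM, edgeR's quasi-likelihood fit took in the 12 libraries together, and p-values were two-sided and adjusted by Benjamini-Hochberg over all genes tested. A gene was called at an adjusted p under 0.05. The SE is the absolute log2 fold change divided by the square root of F, and 95% intervals assume a normal error. The common biological coefficient of variation was 12.9%. Igf2, below the filter, was compared by an exact permutation test. The steps were tested on simulated data.

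The 9 genes and all lists were chosen with earlier results of these data known, so no p was adjusted over a list alone. Named beside them were Igf1r, Igfbp1, Pappa, Ghr, H19 and Pparg, the largest called rise and fall of the wider lists in each comparison (5 CPM or more in the higher genotype), the 3 genes nearest in pattern to a member whose called log2 fold change passed 1, and the leading gene of each marker list. Positions and exon lengths came from GENCODE M21, in which 55480 identifiers (99.8%) were found, and promoter windows from RefSeq, which held all 9 genes. Any 2 libraries of a genotype differed by more than sampling noise (chi-square per degree of freedom 4.95 to 38.7 over 18 pairs). Alternatives were DESeq2 1.42.0, its size factors, library totals, no filter, a replicate block, the 2 compared genotypes alone, and leaving out each library. The fit without TD replicates 3 and 4 was added after the data were seen.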

Additional observations from a re-analysis of the deposited data

Results flagged for a closer look

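In 27 groups of 4 libraries (9 genes in 3 genotypes), 2 held a library far from the other 3, both in Igfbp2, the gene with the fewest counts of those tested. Its level in TA replicate 1 was 3.51 CPM, against 2.67 to 2.77 CPM in the other TA libraries. In TD replicate 2 it was 3.4 CPM, against 2.34 to 2.5 CPM in the other TD libraries. Chance flags about 1 in 20 such groups.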

How the results depend on the processing

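The calls of Igfbp3, Igfbp5 and Igfbp7 in both mutants against WT, and of Igf1 in TA against each other genotype, held under every alternative looked at. The libraries left out in these were of the genotypes compared, and not of the third. With 1 library left out, the adjusted p of Igfbp5 in TA against WT reached 0.0489 by edgeR. Between TD and WT the number of genes called was 3121 to 4413 with 1 library left out and 1516 without TD replicates 3 and 4, and that of the wider IGF system was 7 to 11 and 5. With no filter on low counts, the members called were 5 between TD and WT, the fifth being Igf2, and 5 between TA and WT, the fifth being Igfbp6. Between TA and WT the genes called ranged from 1160 to 1939 with 1 library left out, the members from 4 to 5, and the wider system from 5 to 7, or 5 with only the 2 genotypes compared. Between TD and TA the genes called ranged from 1422 to 3526 with 1 library left out, with 1422 without TA replicate 2, 1586 without TD replicate 3, 1432 without TD replicate 4, and 634 without TD replicates 3 and 4. The members called there were 2 with library totals, where Igf2r was added, 4 with no filter on low counts (Igf1, Igf2, Igf2r and Igfbp5), and 1 to 3 with 1 library left out, 3 being without TA replicate 3. The wider system ranged from 6 (without TD replicate 3) to 16 with 1 library left out, with 3 without TD replicates 3 and 4. Leaving out 1 library also raised the number of genes called in places. Between TD and TA it went from 2524 to 3526 without TA replicate 3. Between TA and WT it went from 1683 to 1939 without TA replicate 2. The cause of these changes was not tested.

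Signs turned in differences near 0 that were not called. Igfbp4 in TD against WT was -0.0071 with the size factors of DESeq2 and in DESeq2, and -0.05 to 0.08 with 1 library left out. In TA against WT, leaving out 1 library gave -0.07 to 0.06 for Igfbp4, -0.01 to 0.17 for Igf1r and -0.12 to 0.02 for Igf2r, and in TD against TA it gave -0.05 to 0.08 for Igfbp4. Igfbp2 in TD against TA was 0.02 without TD replicates 3 and 4. Library totals shifted the median of all genes by at most 0.08 on the log2 scale and moved the balance of higher and lower calls over all genes as given with the comparisons of TD.

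The labels do not say whether a shared replicate number pairs libraries of different genotypes. Deviations of same-numbered libraries from their genotype means had correlations from -0.237 to 0.196, over 0.1 in 2 of 12 pairs. For libraries of unlike number they ran from -0.257 to 0.264. Correlations over so few libraries cannot settle whether a batch was shared. With a replicate block, 4246 genes were called between TD and WT, 1560 between TA and WT and 2488 between the mutants, and the members called were 4, 4 and 1. Ghr in TA against WT had the same log2 fold change of 0.29 in that fit and was not called (adjusted p = 0.0828). The counts of Igf2 and Igfbp2 limit what could be seen for these genes.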
